A study of Mus musculus with 16 samples.

Results

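The unfolded protein response of the endoplasmic reticulum (ER) was followed in mouse heart through 10 genes: Hspa5, Hsp90b1, Calr, Pdia4, Sdf2l1, Dnajb9, Herpud1, Atf6, Ern1 and Xbp1. They were chosen by symbol, to set ER stress beside mitochondrial stress, and each stood on 1 row of the count table. They are 10 of 36499 gene entries, and all 10 passed the filter on low counts that left 15255 genes for testing.

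When unfolded proteins build up in the ER, membrane sensors are released from the chaperone BiP, the product of Hspa5. IRE1 (Ern1) splices the mRNA of the transcription factor XBP1, ATF6 is cut in the Golgi to free a transcription factor, and PERK (Eif2ak3) phosphorylates eIF2α and so raises the translation of ATF4. The first 2 branches raise chaperones, folding enzymes and the machinery that returns misfolded proteins to the cytosol for degradation. The PERK output is shared with other kinases, including those that respond to mitochondrial stress, and is called the integrated stress response. Cardiomyocytes depend on a specialised form of this compartment, the sarcoplasmic reticulum, for calcium release.

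RNA came from cardiac tissue of mice on a normal chow diet, as 4 libraries for each of 4 genotypes. These were wild type, knockout of Fgf21 (a hormone released under metabolic and mitochondrial stress), knockout of Clpp (the peptidase of the mitochondrial matrix protease CLPXP), and a double knockout of both. Loss of CLPP was whole-body: floxed Clpp mice were crossed to mice with Cre recombinase under the ubiquitous β-actin promoter, heterozygotes were intercrossed, and the double knockout came from mice floxed at both genes crossed to the same Cre. How the Fgf21 knockout alone was bred, and the age and sex of the mice, are not given in the sources used here. Libraries of a genotype carry repeat numbers, and nothing says that repeats are different mice; p-values reflect only how far these libraries spread, which may be partly technical. By its title, the study asks when FGF21 modulates the mitochondrial stress response.

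The factors of this response bind short elements, and the promoters of 4 members hold them. The ER stress response element (ERSE) was searched as CCAAT, 9 bases of any kind and CCACG, a second form (ERSE-II) as ATTGG, 1 base and CCACG, and the core of the unfolded protein response element as TGACGTGG, each on both strands. RefSeq promoters (GRCm38.p6, 250 bases before the start to 50 after it) matched 9 of the 10 members by symbol, the exception being Atf6. The stretches with a match are shown because they hold the elements that ATF6 and XBP1 are known to bind. They are written on each gene's own strand, with the searched letters in capitals and, for a match on the opposite strand, as their reverse complement.

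Hspa5, chr2:34772020-34772048, plus strand: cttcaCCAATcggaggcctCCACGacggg

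Hsp90b1, chr10:86705521-86705668, minus strand: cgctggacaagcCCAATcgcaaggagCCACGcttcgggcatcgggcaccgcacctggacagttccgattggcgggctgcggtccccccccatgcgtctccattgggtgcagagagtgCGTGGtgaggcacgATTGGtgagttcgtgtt

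Calr, chr8:84847063-84847105, minus strand: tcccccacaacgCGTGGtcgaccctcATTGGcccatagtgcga

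Herpud1, chr8:94386365-94386399, plus strand: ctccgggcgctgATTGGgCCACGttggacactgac

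ERSE stood in 3 of 9 member promoters, against 0.119% of 32851 promoters of the same length. Hspa5 held it 65 to 47 bases before the start, inside the first exon of the longer GENCODE model. Calr held it in reverse 162 to 144 bases before the start. Hsp90b1 held it at 212 to 194 bases, and again in reverse at 107 to 89 bases. ERSE-II stood only in the Herpud1 promoter, 52 to 42 bases before the start, against 0.0365% of all promoters. TGACGTGG stood in none of the 9 and in 0.676% of all promoters. In sum 4 of 9 member promoters held a match, against 0.822% of all. Pdia4, Sdf2l1, Dnajb9, Xbp1 and Ern1 had none of these letters in this window. A match is a description of the letters and not a measured binding site. The members were chosen as genes of this response, so their share of matches is no independent evidence.

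Libraries held 36260545 to 51820727 counts. Transcripts of mitochondrial DNA took 25.5% to 39.4% of counts in the 8 libraries with CLPP and 56.1% to 60.8% in the 8 without it. Levels are therefore given as CPM, a count relative to its library's total, with totals scaled by edgeR's TMM factors, which centre the bulk of genes between libraries. When libraries were scaled by size alone, the median of all genes on loss of CLPP moved from -0.022 to -0.75 on the log2 scale. Clpp held 1435 to 2636 counts with CLPP intact and 267 to 355 in the knockouts, and Fgf21 held 0 counts in all 8 libraries of both Fgf21 knockout genotypes, 0 to 5 in wild type and 6 to 28 in Clpp KO. Atrial markers set wild-type replicates 2 and 4 apart: their 6 genes (Myl7, Nppa, Myl4, Sln, Bmp10 and Dkk3) summed to 10100 and 6420 CPM there, to 80.7 and 74.7 in wild-type replicates 1 and 3, and to 161 to 3480 in the 12 knockout libraries. White fat markers were also highest in these 2 libraries, at 40.9 and 128 CPM against 0.124 to 10.7 in the other 14, and cardiomyocyte markers summed to 20300 to 43300 CPM in all 16. Wild-type replicates 1 and 3 were the most alike pair of 1 genotype, with a chi-square of 5.68 per degree of freedom against 23.3 to 408 in the others; this is above sampling noise, and they were kept as 2 libraries.

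Per kilobase of exon, which allows levels of different genes to be compared, Hspa5 was the most abundant member with a mean of 67.8 CPM per kilobase over the 16 libraries. Herpud1 (64), Calr (59.8) and Hsp90b1 (45.2) followed. The ranges over libraries of these 4 overlapped, with 41.1 to 87.6 for Hspa5 and 30.2 to 55.6 for Hsp90b1, so their order is not fixed. Xbp1 stood at 13.3, Dnajb9 at 8.39, Pdia4 at 6.81, Atf6 at 6.1 and Sdf2l1 at 2.96 CPM per kilobase. The sensor Ern1 was lowest, at 0.978, and its range of 0.589 to 1.26 lay below every other member except Sdf2l1 (0.869 to 7.74). The calcium-binding chaperones and BiP were thus among the abundant members, and IRE1 mRNA was scarce.

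**Figure D1:**
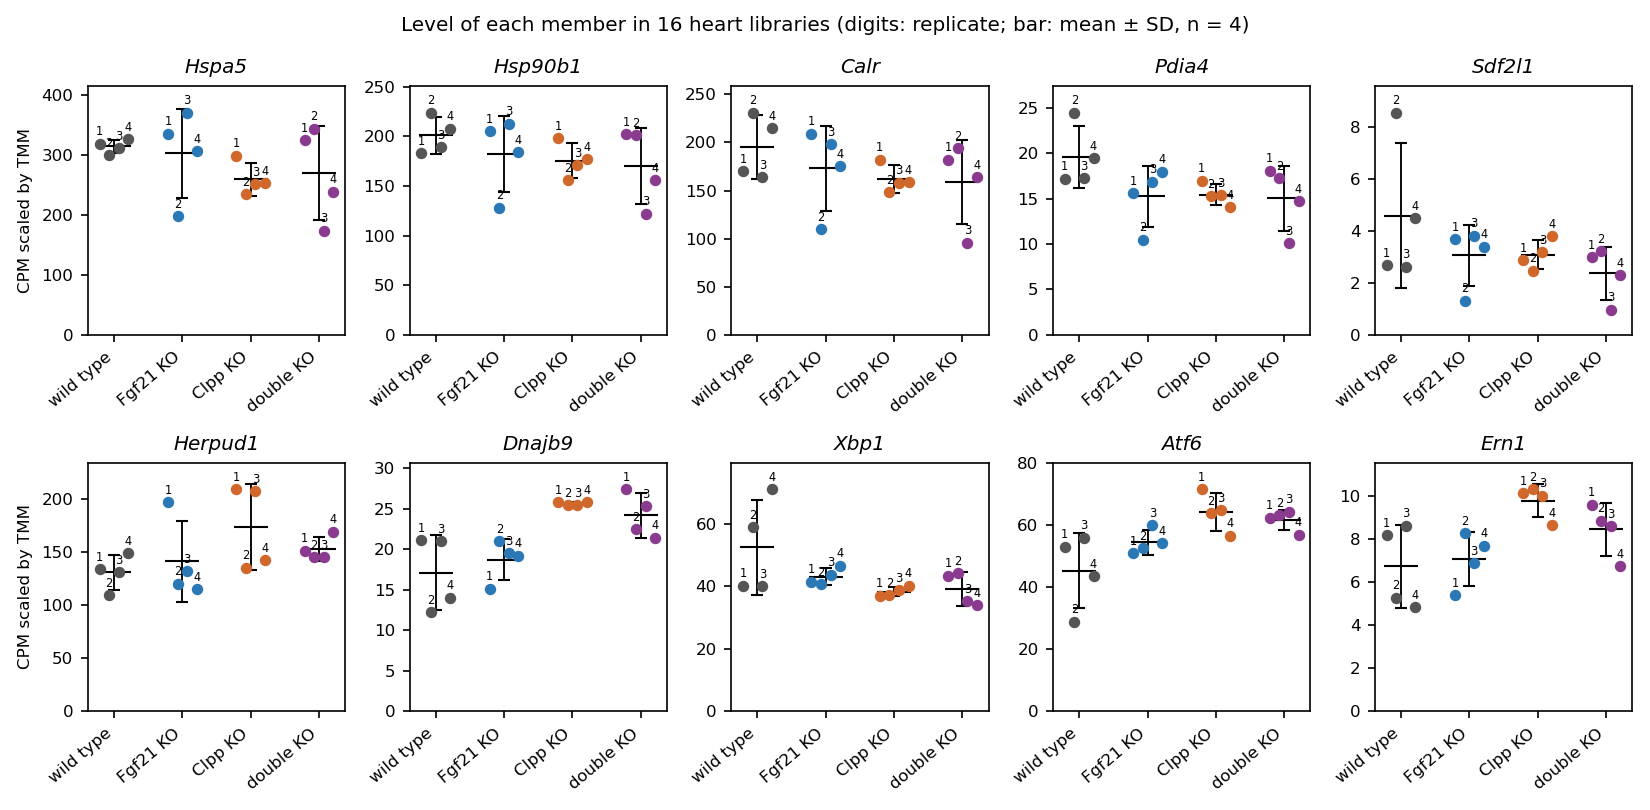
Level of each member in CPM scaled by TMM (vertical axes from 0) in the 16 libraries, by genotype; digits name the replicate, and bars give the mean ± SD of 4 libraries. Dnajb9 lies between 21.4 and 27.4 in all 8 libraries without CLPP and between 12.2 and 21.1 in the 8 with it. Hspa5, Hsp90b1, Calr, Pdia4 and Sdf2l1 overlap between the same libraries. In plain CPM the order of the Dnajb9 means turns, with 22.7 with CLPP and 19.5 without.

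With TMM scaling, no chaperone or folding enzyme among the members, except the co-chaperone Dnajb9 (below), passed the threshold on loss of CLPP. Hspa5, Hsp90b1 (GRP94), Calr (calreticulin), Pdia4 (a disulfide isomerase) and Sdf2l1 (a partner of BiP) all had fold changes below 0 in both Clpp comparisons, and none of the 5 passed the test. With library size alone, 6 members were called lower against wild type: these 5 and Xbp1. At that scaling 11933 of 15255 genes were called, 0.796% of them higher. Across all 10 members, edgeR's quasi-likelihood test called 0 at an adjusted p under 0.05 when Clpp KO was set against wild type, beside 1.63% of all genes. At an unadjusted p under 0.05 there were 5, and other tools called more: 2 with DESeq2 (Dnajb9 and Atf6) and 4 with limma voom and quality weights (also Ern1 and Herpud1), all higher. Of all 15255 genes, 3253 had an unadjusted p under 0.05, and DESeq2 called 848 genes in all and voom 2780. In double KO against Fgf21 KO, the same loss without Fgf21, all 3 tools called 0 of 10, against 0.892% of all genes with edgeR, and 1 member (Dnajb9) had an unadjusted p under 0.05. With both Fgf21 genotypes pooled, 8 libraries without CLPP against 8 with it, 1 of 10 was called by edgeR against 5.11% of all genes, and 4 had an unadjusted p under 0.05. Of all genes, 1081 and 3872 had an unadjusted p under 0.05 in double KO against Fgf21 KO and pooled. Member medians were -0.23, -0.06 and -0.16 on the log2 scale in these 3 comparisons, beside -0.036, -0.006 and -0.022 over all genes. The pooled values rest on the same libraries as the other 2 and are no separate evidence.

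Hspa5 (chr2:34771970-34777547, plus strand, GRCm38), the master chaperone of the ER, stood at 319, 300, 312 and 327 CPM in wild type and at 299, 235, 251 and 253 in Clpp KO, in replicate order. All 4 Clpp KO libraries lay below the lowest of wild type, the nearest being 299 and 300 CPM. Its log2 fold change was -0.28 ± 0.204 (SE, adjusted p = 0.428). Without Fgf21 the levels were 336, 198, 371 and 307 in Fgf21 KO and 325, 344, 174 and 239 in the double KO, and the groups overlapped. That fold change was -0.17 ± 0.204 (adjusted p = 0.899). Pooled over both, the 95% confidence interval of the log2 fold change ran from -0.526 to 0.084, so a rise of Hspa5 above 0.084 lies outside it at this scaling.

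Hsp90b1, which folds integrins and Toll-like receptors, spanned 183 to 224 CPM in wild type and 156 to 198 in Clpp KO. In Fgf21 KO it spanned 128 to 213 CPM and in the double KO 122 to 202. Its pooled interval was -0.409 to 0.115. Calr, a lectin chaperone and calcium store, spanned 164 to 231, 148 to 182, 110 to 209 and 95.9 to 194 CPM in the same order, with a pooled interval of -0.521 to 0.128. Neither gene separated the genotypes. Hsp90b1 shares 12.3% of its 31-base words with other genes and Calr 1.93%, so a small part of their counts may have been shared with copies. The main partner of Hsp90b1, 1810014B01Rik (8.25%), held 168 to 385 counts a library, against 3925 to 14863 for Hsp90b1. That of Calr, Calr-ps, held 0 to 1.

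Pdia4 stood at 17.2, 24.5, 17.3 and 19.5 CPM in wild type and at 17, 15.3, 15.4 and 14.1 in Clpp KO. The groups did not overlap, but the nearest values were 17 and 17.2 CPM and the fold change missed the threshold (-0.34 ± 0.185, adjusted p = 0.286). It was -0.21 without wild-type replicate 2 and -0.15 without replicates 2 and 4. In double KO against Fgf21 KO its log2 fold change was -0.02. Sdf2l1, the scarcest chaperone with 31 to 568 counts a library, had the widest interval, -1.104 to 0.162 pooled. Its highest level, 8.57 CPM, was in wild-type replicate 2. Without wild-type replicates 2 and 4 its fold change against wild type turned from -0.58 to 0.22, and no direction can be given for it.

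Dnajb9 was the 1 member that passed. It encodes ERdj4, an ER co-chaperone that delivers misfolded proteins to BiP and to degradation and also restrains IRE1 (chr12:44205559-44210326, minus strand). Wild type stood at 21.1, 12.2, 21 and 14 CPM and Fgf21 KO at 15.1, 21, 19.5 and 19.2. Clpp KO stood at 25.8, 25.4, 25.4 and 25.8 and the double KO at 27.4, 22.5, 25.3 and 21.4. Every library without CLPP lay above every library with it, and the nearest were 21.4 and 21.1 CPM. Of all genes, 1.49% separated these 8 libraries from the other 8 in either direction.

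The pooled log2 fold change of Dnajb9 was 0.48 ± 0.113 (SE, adjusted p = 0.025), a 1.39-fold rise with TMM scaling that turned to -0.22 (adjusted p = 0.0416) when libraries were scaled by size alone, beside a median of -0.75 over all genes. In plain CPM its mean was 22.7 with CLPP and 19.5 without. Its separate fold changes missed the threshold: 0.58 ± 0.160 against wild type (adjusted p = 0.0773; 0.28, adjusted p = 0.393, without wild-type replicates 2 and 4) and 0.37 ± 0.160 in double KO against Fgf21 KO (adjusted p = 0.657). Without wild-type replicate 1 or 3 the value against wild type was 0.70 and passed (adjusted p = 0.0348 and 0.0307). The groups did not overlap in either comparison, as for 13.7% and 5.8% of all genes. Its lowest levels were in the atrial-rich wild-type replicates 2 and 4, and without them the pooled value was 0.32 (adjusted p = 0.0324). With atrial marker level as a covariate it was 0.45 (adjusted p = 0.0275).

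The call of Dnajb9 was lost on leaving out any of 4 single libraries: Fgf21 KO replicate 1 (adjusted p = 0.0583), Clpp KO replicate 1 (0.0521), Clpp KO replicate 3 (0.052) or double KO replicate 1 (0.0554), with fold changes of 0.43 to 0.48. Of its 31-base words, 10.8% also stand in Gm6568, which held 0 counts in every library. Among all genes Dnajb9 ranked 408 by p in the pooled comparison.

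Herpud1 (chr8:94386438-94395377, plus strand), a membrane protein of the degradation complex, stood at 134, 109, 131 and 149 CPM in wild type and at 209, 135, 207 and 142 in Clpp KO. Clpp KO replicates 1 and 3 lay above all wild-type libraries and replicates 2 and 4 within their range. Its log2 fold change was 0.41 ± 0.184 (adjusted p = 0.219; -0.33 with library size alone). In double KO against Fgf21 KO it was 0.11, with overlapping levels of 145 to 169 and 115 to 197 CPM.

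Every Clpp KO library lay above every wild-type library for the sensor mRNAs Atf6 and Ern1 with TMM scaling. The nearest values were 56.5 and 55.9 CPM for Atf6 and 8.64 and 8.6 for Ern1. In this comparison 13.7% of all genes did not overlap in either direction. Both sensor mRNAs missed the threshold and turned to -0.19 and -0.17 with library size alone. Atf6 (chr1:170704674-170867771, minus strand) was at 53, 28.8, 55.9 and 43.5 CPM in wild type and at 71.5, 63.8, 64.8 and 56.5 in Clpp KO. Its fold change was 0.50 ± 0.157 (adjusted p = 0.108), and 0.18 ± 0.157 (adjusted p = 0.859) in double KO against Fgf21 KO. Ern1 (chr11:106394650-106487852, minus strand) was at 8.17, 5.27, 8.6 and 4.82 CPM in wild type and at 10.1, 10.3, 10 and 8.64 in Clpp KO. Its values were 0.54 ± 0.185 (adjusted p = 0.131) and 0.26 ± 0.185, with levels of 5.37, 8.25, 6.88 and 7.68 CPM in Fgf21 KO and 9.58, 8.84, 8.57 and 6.73 in the double KO. The wild-type libraries lowest in both genes were the atrial-rich replicates 2 and 4, and without these 2 the fold changes against wild type were 0.24 for Atf6 (adjusted p = 0.388) and 0.23 for Ern1 (adjusted p = 0.654).

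Pooled over Fgf21 genotypes, Atf6 was at 0.34 ± 0.111 (adjusted p = 0.0823) and Ern1 at 0.40 ± 0.131 (adjusted p = 0.083), where scaling by library size alone gave -0.35 and -0.29. DESeq2 called both genes in the pooled comparison (adjusted p = 0.0427 and 0.0474), as did limma voom with quality weights (0.0262 and 0.0128). On leaving out 1 library, edgeR also called Atf6 pooled in 1 of 16 fits (lowest adjusted p = 0.0332) and Ern1 in 2 (0.0325). Whether they pass thus turned on the tool and on the libraries kept.

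Xbp1 (chr11:5520659-5525893, plus strand), the mRNA that IRE1 splices, did not pass the main test. It was called lower against wild type in 2 of 26 alternatives other than library size alone, and in 1 of 25 pooled. On leaving out 1 library, edgeR called it in 1 of 16 fits against wild type (adjusted p = 0.0463) and in 1 of 16 pooled (0.0482). Its levels were 40.2, 59, 40.1 and 71.2 CPM in wild type and 37, 37.3, 38.8 and 40.3 in Clpp KO. Fgf21 KO stood at 41.5, 40.7, 43.8 and 46.7 CPM and the double KO at 43.5, 44.3, 35.2 and 34. Wild-type replicates 2 and 4 stood apart at the top. The fold change against wild type was -0.46 ± 0.160 (adjusted p = 0.141) and -0.06 (adjusted p = 0.879) without these 2. Gene counts do not separate spliced from unspliced Xbp1 mRNA, so IRE1 activity was not measured.

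In Clpp KO against wild type 5 of 10 members did not overlap between groups (Dnajb9, Atf6 and Ern1 higher, Hspa5 and Pdia4 lower), where 13.7% of all genes did not. Wild-type replicates 2 and 4 hold the lowest Dnajb9, Atf6 and Ern1 and the highest Xbp1, Sdf2l1, Pdia4, Calr and Hsp90b1 of their group. Without them the fold changes of Calr and Hsp90b1 against wild type went from -0.27 and -0.19 to -0.04 and -0.08, while that of Hspa5 was -0.28 with and without them. Markers of other cell types also differed between genotypes, at TMM scaling. Of 4 neutrophil markers, which summed to 1.07 to 2.68 CPM in wild type and 0.0628 to 0.503 in Clpp KO, the 2 tested were called lower against wild type (S100a8 at -2.78 and S100a9 at -2.60). Their sums were also low with CLPP intact in Fgf21 KO, at 0.353 to 0.757 CPM. In double KO against Fgf21 KO 0 of the 2 were called. Of 6 endothelial markers Pecam1 was called lower against wild type (-0.56), with sums of 424 to 563 and 386 to 474 CPM. Of 6 macrophage markers Adgre1 was called higher pooled (0.70), and sums were 74.3 to 134 and 103 to 130 CPM in wild type and Clpp KO. All 4 Schwann cell markers had values below 0 and 0 were called against wild type, where their sums were 8.92 to 29 CPM and 7.23 to 11.4 in Clpp KO. Wild-type replicates 1 and 3, at 9.89 and 8.92 CPM, lay within the Clpp KO range, and replicates 2 and 4 were at 29 and 19. The part of these cells, or of atrial or fat tissue, in the members' differences was not tested beyond the values above. In whole tissue, fewer cells of a type and less RNA per cell cannot be told apart.

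**Figure D2:**
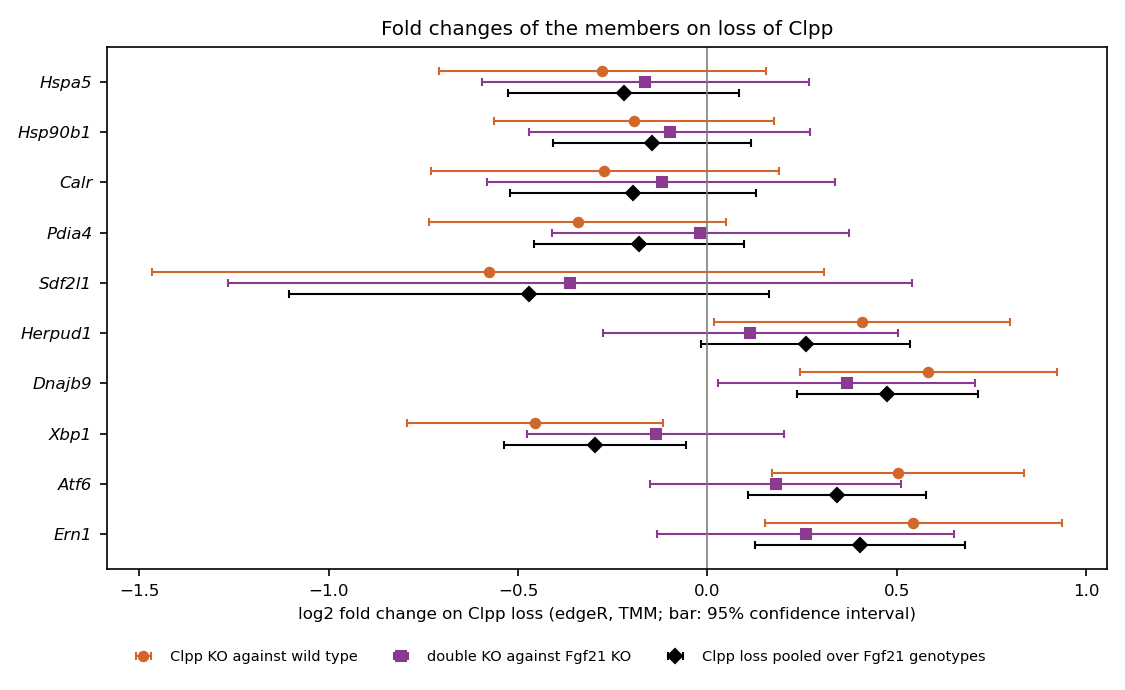
Log2 fold change of each member on loss of Clpp (horizontal axis) with its 95% confidence interval, for Clpp KO against wild type (circles), double KO against Fgf21 KO (squares) and both pooled (diamonds). Hspa5, Hsp90b1, Calr, Pdia4 and Sdf2l1 lie left of 0. Herpud1, Dnajb9, Atf6 and Ern1 lie right of it with TMM scaling (left of it when libraries are scaled by size alone). The pooled interval of Hspa5 spans -0.526 to 0.084.

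No member passed the test on loss of Fgf21. In Fgf21 KO against wild type 0 of 10 were called by edgeR, DESeq2 or voom, against 0.0459% of all genes with edgeR, and 0 had an unadjusted p under 0.05. Log2 fold changes ran from -0.59 for Sdf2l1 (± 0.414) to 0.26 for Atf6 (± 0.157). Pdia4 was at -0.36 ± 0.184 (adjusted p = 0.542) and Xbp1 at -0.29 ± 0.159 (adjusted p = 0.557). Without wild-type replicates 2 and 4 Sdf2l1 turned to 0.22, Xbp1 to 0.12 and Atf6 went to 0.01; 5 of the 10 members changed sign, so no direction is given. In double KO against Clpp KO these 3 tools also called 0 of 10, against 0.059% of all genes with edgeR, and 0 had an unadjusted p under 0.05. There Ern1 was at -0.21 ± 0.185 (adjusted p = 0.994) and Hspa5 at 0.06. Member medians were -0.10 and -0.05, beside -0.011 and 0.008 over all genes.

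Whether Fgf21 changed the effect of CLPP loss was tested as an interaction, the change on Fgf21 loss in hearts lacking CLPP less that in hearts with it. The 3 tools called 0 members, with 0 at an unadjusted p under 0.05. With edgeR 0% of all genes were called: 0 of 15255, with 299 at an unadjusted p under 0.05, while DESeq2 called 3 genes and voom 1. The largest member values were 0.32 ± 0.261 for Pdia4, 0.32 ± 0.226 for Xbp1 and -0.32 ± 0.221 for Atf6, with adjusted p = 1 for each. For Dnajb9 the interval ran from -0.693 to 0.264 and for Hspa5 from -0.497 to 0.724. Both intervals include 0. Without wild-type replicates 2 and 4, 6 of the 10 interaction values changed sign.

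Across libraries the members fell into sets that moved together, seen after the values were known. Among Hspa5, Hsp90b1, Calr, Pdia4 and Sdf2l1 the 10 pairwise Pearson correlations of log2 CPM over 16 libraries were 0.72 to 0.96 (Spearman 0.60 to 0.97), and 0.72 to 0.96 in deviations from genotype means. Among Dnajb9, Atf6 and Ern1 they were 0.78 to 0.93 (Spearman 0.80 to 0.86) and 0.66 to 0.90. Between these sets they were -0.61 to -0.18, and -0.64 to 0.15 in deviations from genotype means, so they were not negative in every pair. Xbp1 had positive correlations with the chaperones (0.47 to 0.66, and 0.32 to 0.62 in deviations) and a negative one with Dnajb9 (-0.75, and -0.59 in deviations), and those of Herpud1 with both sets were -0.14 to 0.50. Genotype, depth and composition are shared by the points.

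These correlations rest in part on 4 libraries. Fgf21 KO replicate 2 and double KO replicate 3 were low in chaperones: the 5 chaperone members had a median of -0.70 against the group median (log2) in each. Hspa5 was at 198 and 174 CPM there, the 2 lowest of all 16 libraries. The shift was smaller in 17 other ER chaperones and folding enzymes, at -0.18 and -0.23, of which 12 and 11 were lowest of their group. Over the 12 libraries without these 2 and without wild-type replicates 2 and 4, chaperone correlations ran from 0.01 to 0.93, while those among Dnajb9, Atf6 and Ern1 ran from 0.73 to 0.90. Between the sets they ran from -0.58 to 0.14, and Xbp1 with Dnajb9 was at -0.28. Values of the second set thus stayed high without them, and those of the first did not in every pair. The 12-library values were not taken in deviations from genotype means. Dnajb9, Atf6 and Ern1 all had higher means without CLPP at TMM scaling, so genotype is part of their correlations. The sets were also picked from these libraries, and whether they hold elsewhere was not tested.

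**Figure D3:**
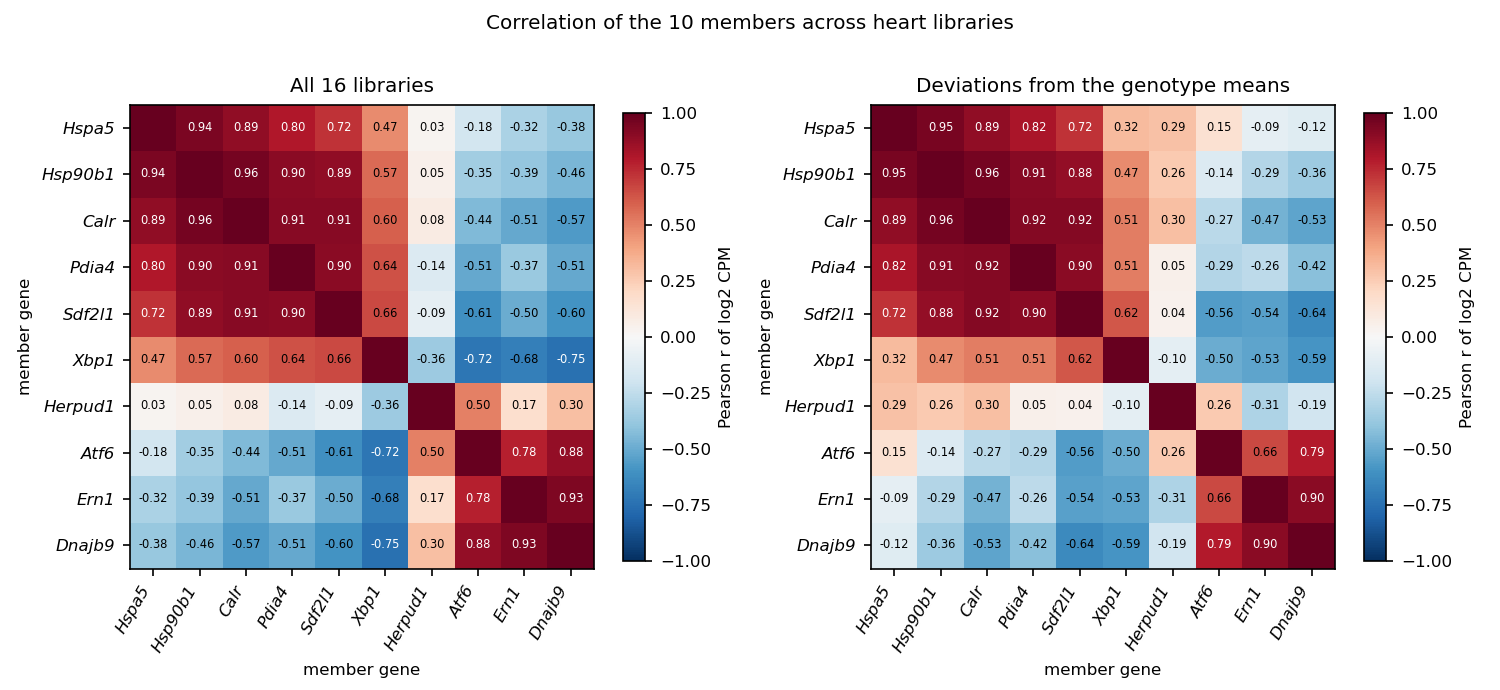
Pearson correlation of log2 CPM (colour, and digits in each cell) between the 10 members over 16 libraries (left) and in deviations from genotype means (right). Hspa5, Hsp90b1, Calr, Pdia4 and Sdf2l1 form a block of 0.72 to 0.96, and Atf6, Ern1 and Dnajb9 one of 0.78 to 0.93 on the left.

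The genes whose pattern over the 16 libraries was most like the mean of the standardised members were Ticam1 (r = 0.925), Ttll12 (0.891), Reep1 (0.888), Itga9 (0.884) and Plac9a (0.881). Their pooled fold changes on loss of CLPP ran from -0.06 to 0.26.

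Lists around the members give their context. For scale, against wild type 3253 of all 15255 genes had an unadjusted p under 0.05, and DESeq2 and voom called 848 and 2780. Pooled, these numbers were 3872, 1538 and 3244. With library size alone 11933 genes were called against wild type, 10858 in double KO against Fgf21 KO and 13316 pooled. Of these, 0.796%, 0.884% and 0.924% were higher. Of 17 other ER chaperones and folding enzymes, edgeR called 0 in each Clpp comparison, with a median of -0.15 pooled and 5 at an unadjusted p under 0.05; DESeq2 and voom each called 1 pooled, Sdf2 (lower). The pooled median was -0.05 without wild-type replicates 2 and 4, and with library size alone it was -0.88 and all 17 were called lower in each Clpp comparison. Creld2, a secreted ER stress protein, was at -0.56 ± 0.202 (adjusted p = 0.147) and Sdf2 at -0.28 ± 0.103 (adjusted p = 0.154) against wild type. Of 15 tested genes of ER-associated degradation and translocation 0 were called against wild type by edgeR (4 at an unadjusted p under 0.05, 1 by DESeq2, 5 by voom) and 1 pooled: Sec24d, a coat protein of ER export vesicles, at 0.50 ± 0.131 (adjusted p = 0.0389; -0.22 with library size alone, and not called without wild-type replicates 2 and 4). Edem3, which trims glycans of misfolded proteins, was at 0.52 ± 0.155 (adjusted p = 0.0936) and the translocon subunit Sec61b at -0.63 ± 0.206 (adjusted p = 0.12). Of 9 tested other sensors and their processing enzymes 0 were called against wild type (1 at an unadjusted p under 0.05, 0 by DESeq2, 3 by voom). Mbtps2, the protease that frees ATF6, was at 0.46 ± 0.192 (adjusted p = 0.189) and Atf6b at -0.27 ± 0.131 (adjusted p = 0.243).

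Some genes of the integrated stress response were called higher. Of its 14 genes edgeR called 4 higher against wild type and 0 lower, beside 1.63% of all genes (7 higher with DESeq2, 10 with voom), with a median of 0.43 (1.13 without wild-type replicates 2 and 4, -0.35 with library size alone). Asns, which makes asparagine, had a wild-type mean of 2.36 ± 1.19 CPM scaled by TMM (SD, n = 4), against 20.2 ± 2.25 in Clpp KO. With Fgf21 deleted the means were 1.49 ± 0.325 with CLPP and 7.52 ± 2.73 in the double KO. Its log2 fold change against wild type was 3.10 ± 0.321 (adjusted p = 7.8e-05). Atf5, a transcription factor of the mitochondrial response, went from 39.1 ± 11.6 to 164 ± 10.7 CPM in Clpp KO (2.07 ± 0.227, adjusted p = 0.000111) and Trib3, an inhibitor of ATF4 and AKT, from 2.53 ± 0.438 to 8.49 ± 1.62 (1.75 ± 0.249, adjusted p = 0.00126). No Clpp KO library overlapped wild type in these 3 genes, as for 13.7% of all genes. The 3 were named for the smallest p in this same comparison, so this is no separate evidence.

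In double KO against Fgf21 KO 2 of the 14 were called, Asns (2.34 ± 0.322, adjusted p = 0.000846) and Atf5 (1.26 ± 0.222, adjusted p = 0.00656), beside 0.892% of all genes. DESeq2 and voom each called 3, with Trib3, of 212 and 369 genes called in all. With library size alone 1 was higher, Asns, and 5 lower, and Atf5 was at 0.59 (adjusted p = 0.0764). Pooled, 7 of 14 were called higher and 0 lower by edgeR, beside 5.11% of all genes (8 higher and 1 lower, Ddit4, with DESeq2; 9 higher with voom): Asns, Atf5, Trib3, Chac1, Sesn2, Slc7a11 and Ddit3 (CHOP, 0.51 ± 0.119, adjusted p = 0.0229). With library size alone 4 were higher pooled (Asns, Atf5, Trib3 and Chac1) and 6 lower, and Ddit3 turned to -0.25. Without wild-type replicates 2 and 4 the count was 6, without Chac1. The list was chosen with earlier results of these data known, so its direction is not independent evidence. The transcripts of Eif2ak3 (PERK) and Atf4 were at 0.18 ± 0.188 and 0.19 ± 0.211 against wild type, and neither passed; both were looked up after other values were seen. Phosphorylation of eIF2α and kinase activity were not measured.

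Mitochondrial chaperones and proteases had 0 of 13 called in each Clpp comparison by edgeR (5 at an unadjusted p under 0.05 against wild type, 0 by DESeq2, 4 by voom), with a median of 0.33 against wild type and 0.23 pooled. The 4 called by voom (Hspd1, Hspa9, Clpx and Lonp1) were all higher, while the voom median of the list was -0.01. Pooled, voom called 1 higher and 1 lower. Hspa9 (mitochondrial HSP70) was at 0.61 ± 0.218 and Hspd1 (HSP60) at 0.49 ± 0.175, both with adjusted p = 0.144. The median turned to -0.03 without wild-type replicates 2 and 4 and to -0.39 with library size alone, so no direction is given for the list. Cytosolic heat shock genes had 0 of 10 called against wild type (1 at an unadjusted p under 0.05, 0 by DESeq2, 1 by voom) and a median of -0.24. The median was -0.02 without wild-type replicates 2 and 4, and with library size alone it was -0.99 with all 10 called lower. At that scaling 11933 of 15255 genes were called, 0.796% of them higher. Hspa1a was at -2.13 ± 0.908 (adjusted p = 0.203) and Hspb1 at -0.59 ± 0.299 (adjusted p = 0.26); Hspa1a and Hspa1b are near-identical copies that share reads.

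**Figure D4:**
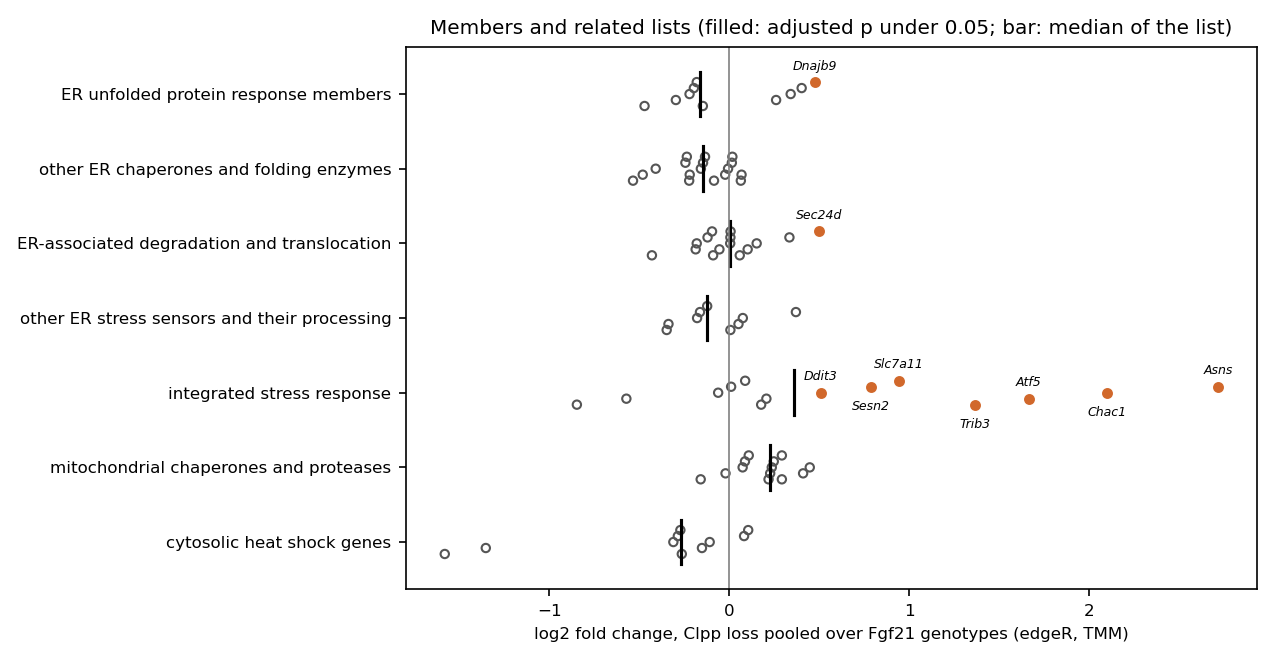
Log2 fold change on loss of Clpp pooled over Fgf21 genotypes (horizontal axis) for the 10 members and the genes of 6 other lists, 1 point per gene; filled points passed an adjusted p of 0.05 and vertical bars give list medians. With TMM scaling Dnajb9 alone of the members is filled (all 10 are called lower with library size alone), while 7 of 14 integrated stress response genes are, from Ddit3 at 0.51 to Asns at 2.72. With library size alone 13316 of 15255 genes are called, 0.924% of them higher.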

How the data were processed

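Whole-number counts per gene were deposited for 16 libraries. The submitters' processing notes name kallisto 0.46.1, fastp 0.21.0, DESeq2 1.30.1, edgeR 3.32.1, R 4.0.3 and the build GRCm38.p6. How the authors' counts were made whole, and whether strand was used, are not given in the sources used here, so a gene and its antisense or overlapping partner may share reads. kallisto shares reads between near-identical copies. Libraries were stranded poly(A) libraries per the labels' protocols.

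Counts as deposited were fitted with edgeR 4.0.16 in R 4.3.3: filterByExpr (count minimum 10, total minimum 15), TMM factors (0.674 to 1.83), 1 robust quasi-likelihood model of all 16 libraries with 12 residual degrees of freedom (common biological coefficient of variation 0.249), and two-sided tests of 6 comparisons, each adjusted after Benjamini and Hochberg over 15255 genes. The steps were tested on simulated data. Where 1 symbol stood on 2 entries of a list (Ddit3, Hspa4l), the larger was used. All members were named; from each other list, up to 3 called genes with the smallest p in Clpp KO against wild type, or 2 where none was called. Positions and exon lengths come from GENCODE M21. DESeq2 1.42.0, limma 3.58.1, other scalings, no filter, a replicate block, an atrial covariate and left-out libraries were tried as alternatives. The members and lists were chosen with earlier results of these data known. Same-numbered libraries did not deviate together (24 pairs, r -0.23 to 0.36), so no pairing was used.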

Additional observations from a re-analysis of the deposited data

Results flagged for a closer look

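Among 40 groups of 4 libraries (10 members by 4 genotypes), 2 held a library whose gap to the nearest other exceeded Dixon's 95% critical share of the group's range; chance gives this in about 1 of 20 groups. Ern1 in Clpp KO replicate 4 was at 8.64 CPM scaled by TMM, below 10, 10.1 and 10.3 in the other Clpp KO libraries. Sdf2l1 in Fgf21 KO replicate 2 was at 1.31, below 3.4, 3.7 and 3.82 in the other Fgf21 KO libraries. In that library 6 of the 10 members were the lowest of their group. The same number were in Clpp KO replicate 2, and 5 in double KO replicate 3.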

How the results depend on the processing

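Of 27 alternatives, 16 left out 1 library each and 11 changed another choice. The number of members called in Clpp KO against wild type (0) became 2 with DESeq2, 4 with voom, 3 with the atrial covariate, 6 with library size alone, 1 with wild-type replicates 1 and 3 summed (chosen after seeing the data), and 0 to 4 on leaving out 1 library (1 without wild-type replicate 1, 4 without replicate 3). The pooled count (1) became 3, 4 and 3 with DESeq2, voom and the summed replicates, 10 with library size alone, and 0 to 4 on leaving out 1 library (2 without wild-type replicate 1, 4 without replicate 3); in double KO against Fgf21 KO it became 8 with library size alone. Member medians moved to 0.05 (voom), 0.09 (without wild-type replicates 2 and 4) and -1.0 (library size alone) in Clpp KO against wild type, and with library size alone to -0.74 in double KO against Fgf21 KO, -0.90 pooled and -0.32 in Fgf21 KO against wild type. The cause was not tested, except that library size alone moved the median of all genes to -0.79, -0.70, -0.75 and -0.23 in these 4 comparisons. Library size alone reversed Dnajb9, Atf6, Ern1 and Herpud1: -0.12, -0.19, -0.17 and -0.33 in Clpp KO against wild type, -0.32, -0.51, -0.42 and -0.59 in double KO against Fgf21 KO, and -0.22, -0.35, -0.29 and -0.46 pooled. In Clpp KO against wild type Sdf2l1 reversed to 0.16 with voom and 0.22 without wild-type replicates 2 and 4. Reversals in double KO against Fgf21 KO were Pdia4 0.02 (voom) and 0.10 and Xbp1 0.04 (atrial covariate), and on leaving out 1 library Pdia4 (0.02 and 0.07 without Fgf21 KO replicates 3 and 4, 0.13 without double KO replicate 3; range -0.16 to 0.13), and, without double KO replicate 3, Hsp90b1 (0.03; range -0.24 to 0.03) and Calr (0.06; range -0.29 to 0.06). In Fgf21 KO against wild type voom reversed Hspa5 and Hsp90b1 (both 0.08), Dnajb9 (-0.14), Xbp1 (0.09), Ern1 (-0.26), Sdf2l1 (0.31) and Calr (0.13), dropping wild-type replicates 2 and 4 Dnajb9 (-0.16), Xbp1 (0.12), Ern1 (-0.24), Sdf2l1 (0.22) and Calr (0.07), and library size alone Dnajb9 (-0.04), Ern1 (-0.10) and Herpud1 (-0.08); on leaving out 1 library Ern1 (-0.06 to 0.21), Herpud1 (-0.09 to 0.20) and Hspa5 (-0.16 to 0.11) changed sign. Reversals in double KO against Clpp KO were Hsp90b1, Pdia4 and Calr with voom (0.06, 0.06 and 0.09) and the atrial covariate (0.01, 0.09 and 0.07), Hspa5 (-0.07) and Xbp1 (-0.10) with library size alone, and on leaving out 1 library Hsp90b1 (-0.14 to 0.09), Pdia4 (-0.14 to 0.11), Calr (-0.13 to 0.16), Hspa5 (-0.08 to 0.22) and Xbp1 (-0.03 to 0.10). In the interaction voom reversed Hsp90b1 (-0.02), Dnajb9 (0.06), Ern1 (0.07), Sdf2l1 (-0.50) and Calr (-0.04), dropping wild-type replicates 2 and 4 Hsp90b1 (-0.04), Dnajb9 (0.07), Xbp1 (-0.09), Ern1 (0.02), Sdf2l1 (-0.60) and Calr (-0.10), and leaving out 1 library Sdf2l1 (-0.31 to 0.47), Hspa5 (-0.05 to 0.27), Hsp90b1 (-0.04 to 0.22) and Calr (-0.02 to 0.33). None of the members so reversed in these last 3 comparisons was called by edgeR there. Dnajb9 pooled stayed at 0.32 to 0.54 over the 25 alternatives other than library size alone and was called in 21 (adjusted p 0.00185 to 0.0583). A replicate block, for numbers that do not pair the libraries (3 of 16 were closest to one of their own number), called 0 members in 5 comparisons and Dnajb9 pooled (0.48, adjusted p = 0.0395), and 146 genes in Clpp KO against wild type. Genes called in Clpp KO against wild type (249, 66.3% higher) were 848 with DESeq2 (52.9%), 2780 with voom (49.9%), 1118 with the atrial covariate (49.4%), 159 without wild-type replicates 2 and 4 (83%), 562 with summed wild-type replicates 1 and 3, 151 in a fit of the 2 groups and 114 to 949 on leaving out 1 library; pooled (779) they were 1538, 3244, 515 with the block, 1321 summed and 413 to 1558. Genes called in double KO against Fgf21 KO (136, 92.6% higher) were 212 with DESeq2 (84%), 369 with voom (72.1%), 241 without wild-type replicates 2 and 4 (82.2%) and 10858 with library size alone (0.884%); in Fgf21 KO against wild type (7) 34, 101 and, with the atrial covariate, 13; in double KO against Clpp KO (9) 37, 40 and, without wild-type replicates 2 and 4, 15. With library size alone they were 11933 against wild type and 13316 pooled, of which 0.796% and 0.924% were higher. Precision was lowest for Sdf2l1, with an SE of 0.417 in Clpp KO against wild type against 0.157 to 0.217 in the other 9 members.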
